A study of Bos taurus with 10 samples.

Results

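The genes described here code for splicing factors and heterogeneous nuclear ribonucleoproteins (hnRNPs) of cattle embryos. They were taken by gene symbol alone, as SRSF followed by a number, SNRP followed by A to G or a number, HNRNP, or SF3A and SF3B, and no expression value entered the choice. The rule found 51 genes among the 28700 symbols that stand on a single line of the deposited table, and 0 of the 81 symbols left out for standing on several lines matched it. By role they comprise 20 hnRNPs, 11 SR proteins, 9 subunits of SF3A and SF3B, 7 Sm core proteins and 4 proteins specific to the U1 or U2 particle.

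Bovine zygotes had received small interfering RNA, which marks a matching messenger RNA for destruction, either directed at H1FOO, a linker histone that oocytes make in place of the somatic ones (knockdown, KD), or a negative control (NC). Poly(A) RNA was sequenced from KD and NC embryos at the 8/16-cell stage on day 4 after insemination, with 2 libraries per treatment. It was also sequenced from KD and NC morulae, compacting balls of cells before the blastocyst cavity forms, on day 5.5, with 3 libraries per treatment. KD is a lowering of the transcript by injected RNA and not a deletion of the gene, all groups carried an injection, and the number of embryos per library is not given in the sources used here.

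Before a transcript leaves the nucleus its introns are cut out by the spliceosome. Small nuclear ribonucleoproteins (snRNPs) are its RNA and protein building blocks, most of them built on a ring of Sm proteins. U1 marks the start of an intron, and U2, with its SF3A and SF3B complexes, marks the branch site near its end. SR proteins mostly promote the use of exons, whereas hnRNPs coat the new transcript and often repress splice sites, so their balance sets which exons are kept. Early embryos of mammals first live on the oocyte's stored RNA, and in cattle the main activation of the embryo's own genome falls at about the 8/16-cell stage.

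Values are FPKM, fragments of a gene scaled by its length and by all mapped fragments of the library, so each value is relative to the other transcripts of its library. In bulk RNA of this kind, fewer cells of a type and less RNA per cell cannot be told apart. Libraries summed to 345464 to 669836 FPKM, 11103 to 11872 genes reached 1 FPKM, and the number of reads per library is unknown. H1FOO stood at 0.649 and 0.0736 FPKM in KD and 50.8 and 10.8 FPKM in NC 8/16-cell embryos, and at 0.0610, 0.191 and 0.251 FPKM in KD and 0.294, 1.05 and 2.17 FPKM in NC morulae. MIR2887, a microRNA gene, took 27.1% and 8.06% of the summed FPKM of KD 8/16-cell replicates 1 and 2 and was at 0 in the other 8 libraries. Embryo markers were present throughout, since at least 7 of 8 listed genes averaged above 1 FPKM in every group. Their sum was 507 to 838 FPKM in KD and 738 to 1042 FPKM in NC morulae, and 336 to 384 FPKM in KD and 392 to 520 FPKM in NC 8/16-cell embryos. The 8 oocyte markers summed to 8.16 to 18.8 FPKM in KD and 6.91 to 10.2 FPKM in NC morulae, and to 127 to 164 FPKM in KD and 133 to 218 FPKM in NC 8/16-cell embryos. Oocyte marker sums were lower in all morula than in all 8/16-cell libraries, and embryo marker sums were lower in both KD than in both NC 8/16-cell libraries. For the somatic cells that surround the oocyte in its follicle (cumulus and granulosa), 10 markers together summed to 12.7 to 68.9 FPKM in KD and 4.98 to 15.3 FPKM in NC morulae, with the receptor FSHR at 0 in all libraries and PTX3 at 0 in NC morulae. At the 8/16-cell stage the same markers summed to 98.3 to 101 FPKM in KD and 56.9 to 59.2 FPKM in NC embryos, without overlap. Of these 10 markers 4 averaged at least 1 FPKM in NC morulae and 6 in each other group. Of 6 blood and immune cell markers 2 did so in every group. Those 6 summed to 137 to 244 FPKM in KD and 109 to 160 FPKM in NC morulae. At the 8/16-cell stage they summed to 101 to 117 FPKM in KD and 101 to 122 FPKM in NC embryos. RN18S1, which codes for 18S ribosomal RNA, had 9053, 8553 and 11581 FPKM in KD and 2704, 2983 and 8611 FPKM in NC morulae. The part of these cells, and of RNA composition, in the results that follow was not tested except where a value is given.

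All 51 genes were detected in all 10 libraries, and their lowest single value was 3.20 FPKM. The median of their means over all libraries was 142 FPKM, against 9.34 FPKM over the 11761 genes tested, and 41 of 51 lay in the top 10% of tested genes. HNRNPA1, a repressor of splice sites that shuttles between nucleus and cytoplasm, was the most abundant with a mean of 709 FPKM. It was followed by the Sm protein SNRPD2 with 673 FPKM, by HNRNPA2B1, a close relative of HNRNPA1, with 639 FPKM, and by the Sm protein SNRPD3 with 500 FPKM. SNRPD2 had 638, 464 and 742 FPKM in KD and 583, 392 and 529 FPKM in NC morulae, and 986 and 814 FPKM in KD and 860 and 721 FPKM in NC 8/16-cell embryos. SNRPD3 had 599, 401 and 496 FPKM in KD and 674, 407 and 688 FPKM in NC morulae, and 498 and 383 FPKM in KD and 451 and 406 FPKM in NC 8/16-cell embryos. KD and NC values of both overlapped at either stage, and replicate 2 was the lowest library of each morula group. These 4 genes held 24.5% of the summed FPKM of all 51.

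At the low end stood HNRNPLL, known in human lymphocytes as a regulator of CD45 exons, with a mean of 6.42 FPKM, and SRSF12, a relative of the splicing repressor SRSF10, with 7.12 FPKM. Next above them came HNRNPH2, a binder of runs of G, with 41.6 FPKM and SF3B3, a scaffold subunit of SF3B, with 48.8 FPKM. The hnRNPs supplied 48.2% of the summed FPKM of the 51 genes, Sm core proteins 22.0%, SR proteins 14.6%, SF3A and SF3B 11.4% and the U1 and U2 proteins 3.77%. Within the Sm core, whose proteins sit in the same ring, mean levels ran from 61.5 FPKM for SNRPF to 673 FPKM for SNRPD2. In human genomes several of these genes have near-identical copies, and where such copies exist in cattle how reads were divided among them is uncertain.

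Most of the genes stayed in a narrow range. The ratio of the highest to the lowest library had a median of 1.86 and was under 2 for 33 of 51 genes, beside 24.5% of all genes tested. For genes of like abundance, with a mean of at least 30 FPKM, that ratio was under 2 for 33 of 49 members and for 41.8% of the 2536 other genes. SF3B3 varied least, with a ratio of 1.25. Its values were 49.1, 52.1 and 45.4 FPKM in KD and 45.1, 42.0 and 47.8 FPKM in NC morulae, and 52.3 and 52.6 FPKM in KD and 51.8 and 49.6 FPKM in NC 8/16-cell embryos. SF3B5, a small subunit of the same complex, varied most, with a ratio of 6.44.

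**Figure D1:**
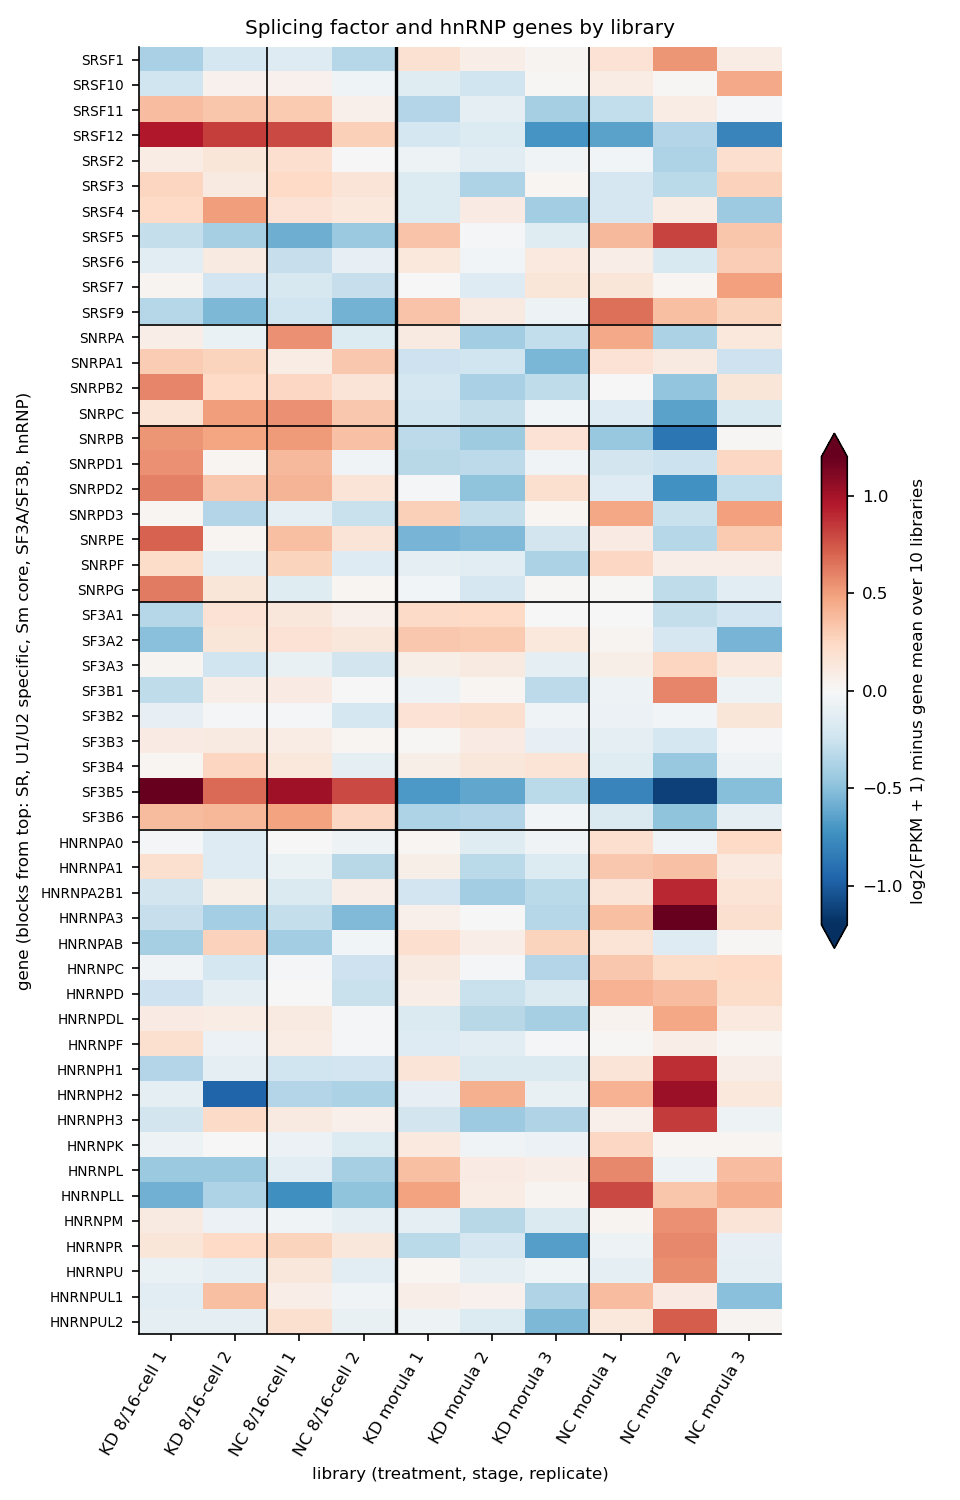
Heat map of the 51 genes (rows, by family) in the 10 libraries (columns, by stage and treatment); color gives the log2(FPKM + 1) difference from the gene's own mean over the 10 libraries. SF3B5 and SRSF12 are high in all 4 8/16-cell libraries and low in all 6 morula libraries, and many hnRNPs are high in NC morula replicate 2.

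At the morula stage most hnRNP transcripts lay lower in KD than in NC embryos, but none of the 51 genes passed the test. Of the 20 hnRNPs 19 had a negative log2 difference, with a median of -0.42, whereas 7 of 9 SF3A and SF3B genes had a positive one, with a median of 0.12. Over all 51 genes 15 differences were positive, beside 42.0% of all genes, and 36 negative. Their median was -0.19, beside -0.08 over all 11761 genes. With quantile normalization, which gives every library the same distribution of values, 22 of the 51 were positive and 29 negative, and the median was -0.05. Differences are on the log2(FPKM + 1) scale, KD minus NC, from limma fitted to all genes and libraries, and a gene passed at a Benjamini-Hochberg adjusted p under 0.05 over all genes tested. In limma 0 of 51 genes passed, where 0.697% of all genes did (82 genes). At an unadjusted p under 0.05 there were 10 of the 51, or 19.6%, beside 21.2% of all genes.

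HNRNPDL, a paralogue of the RNA decay factor HNRNPD, had the smallest p. It stood at 108, 97.2 and 92.7 FPKM in KD morulae and 126, 170 and 133 FPKM in NC morulae. Every KD value was below every NC value, which gave a log2 difference of -0.51 (SE 0.16, n = 3 per group, limma adjusted p 0.115). HNRNPD itself, which binds AU-rich sequences that mark messenger RNAs for decay, had 304, 239 and 255 FPKM in KD and 385, 372 and 335 FPKM in NC morulae. Its groups did not overlap either, with a difference of -0.46 (SE 0.17, limma adjusted p 0.160).

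HNRNPA2B1, which packages transcripts and takes part in their transport, had the largest negative difference of the family. It reached 526, 462 and 491 FPKM in KD morulae and 688, 1153 and 689 FPKM in NC morulae, a difference of -0.73 (SE 0.23, limma adjusted p 0.120). All 3 KD libraries were below all NC libraries, and NC replicate 2 was far above the other two. HNRNPA3, of the same A/B subgroup, followed that pattern with 223, 216 and 169 FPKM in KD and 277, 504 and 245 FPKM in NC morulae (difference -0.69, SE 0.26, limma adjusted p 0.164). HNRNPA1 stood at 735, 560 and 623 FPKM in KD and 877, 892 and 760 FPKM in NC morulae. Its groups also lay apart, by a smaller difference of -0.40 (SE 0.20, limma adjusted p 0.267), while HNRNPA0 differed by -0.19 and overlapped.

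HNRNPUL2, a relative of the chromatin-bound protein HNRNPU, had 103, 95.6 and 73.4 FPKM in KD morulae and 118, 179 and 110 FPKM in NC morulae. HNRNPH3, of the group that binds runs of G, had 151, 130 and 137 FPKM in KD and 184, 315 and 169 FPKM in NC morulae. Neither pair of groups overlapped, and NC replicate 2 was again the highest. The differences were -0.55 (SE 0.21, limma adjusted p 0.172) for HNRNPUL2 and -0.61 (SE 0.24, limma adjusted p 0.174) for HNRNPH3. HNRNPR, a close relative of SYNCRIP, differed by -0.53, and HNRNPM, a binder of GU-rich sequence, by -0.45.

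For 11 of 20 hnRNPs the KD and NC morulae did not overlap, and all 11 were lower in KD. Over the 51 genes 13 were lower in this way (25.5%), beside 15.3% of all genes, and 2 were higher, beside 8.44% of all genes. The other hnRNPs without overlap were HNRNPC, which binds U-rich tracts (-0.35), and HNRNPF (-0.14). HNRNPAB was the single hnRNP with a positive difference, at 500, 457 and 522 FPKM in KD and 487, 390 and 437 FPKM in NC morulae (0.17, SE 0.21), and its groups overlapped. HNRNPK, which binds C-rich sequence (-0.10), HNRNPL, which binds CA repeats (-0.11), HNRNPU (-0.16) and HNRNPUL1 (-0.07) overlapped as well, as did HNRNPH1 (-0.44), HNRNPH2 (-0.44) and HNRNPLL (-0.32). The 95% interval of the HNRNPK difference ran from -0.44 to 0.24.

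NC morula replicate 2 stood apart for these genes. It held the highest of the 3 NC morula values for 12 of 20 hnRNPs and the lowest for 6 of 7 Sm core genes, where over all genes it was the highest for 30.7% and the lowest for 40.6%. KD morula replicate 1 in turn held the highest of the 3 KD morula values for 16 of 20 hnRNPs (80%), beside 35.7% of all genes. Without NC morula replicate 2 the median hnRNP difference was -0.31 with 18 of 20 negative. HNRNPA2B1 then differed by -0.48, HNRNPA3 by -0.37, HNRNPH3 by -0.34 and HNRNPR by -0.31. With RN18S1 as a covariate the median was -0.24 with 17 of 20 negative, and 2 of the 51 genes (3.92%) had an unadjusted p under 0.05, beside 10.6% of all genes. With quantile normalization 15 of 20 were negative and the median was -0.29. Over the 21 alternatives run, the hnRNP median stayed between -0.49 and -0.24.

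**Figure D2:**
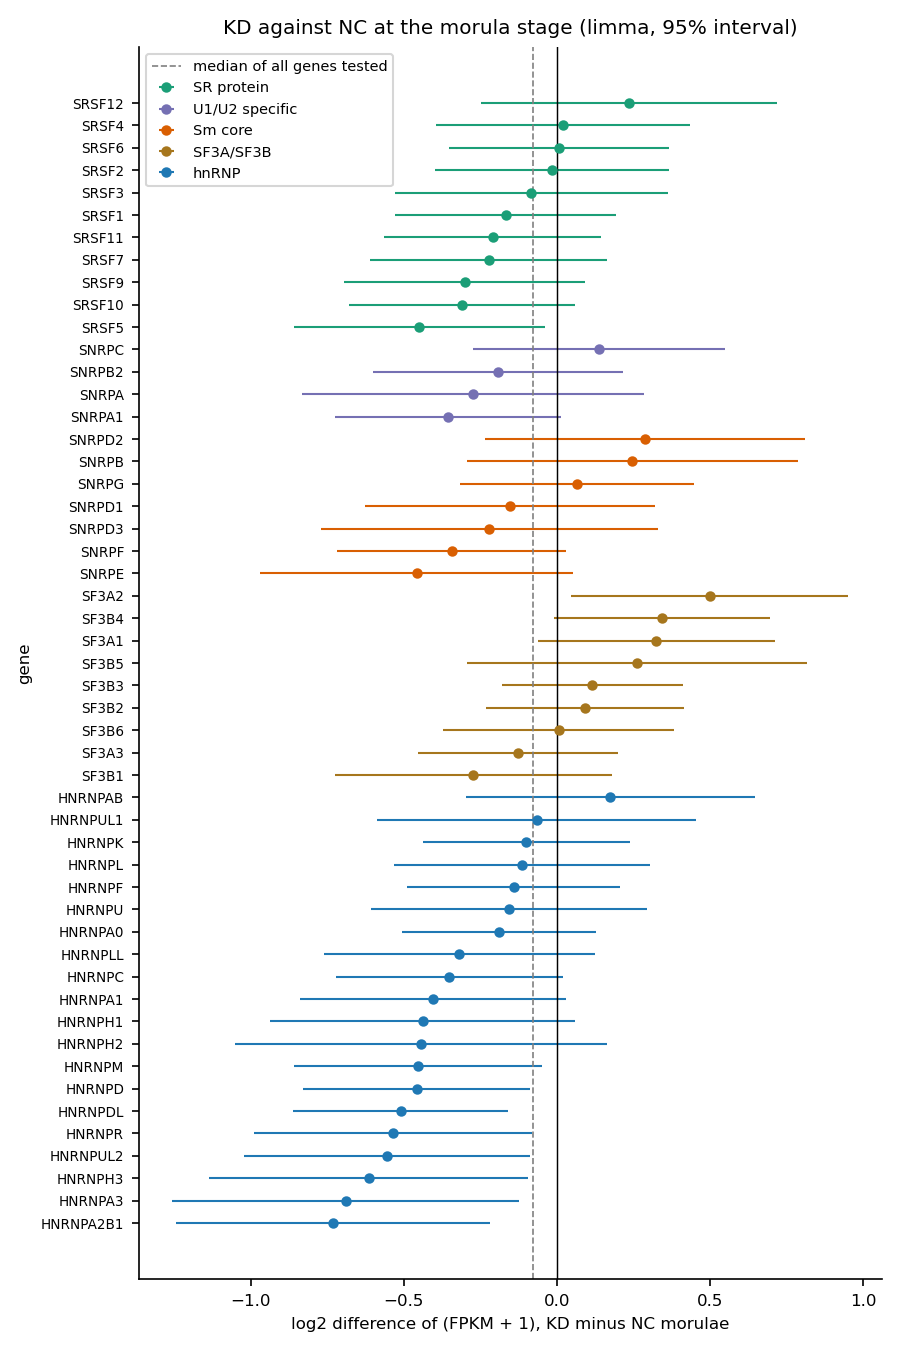
Log2(FPKM + 1) difference, KD minus NC, at the morula stage for each of the 51 genes, by family; points are limma estimates and bars their 95% confidence intervals (n = 3 libraries per group). The hnRNP points lie below 0 with the exception of HNRNPAB at 0.17, and no gene passed after adjustment over all genes.

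The KD and NC libraries of the morula stage share replicate numbers, and same-numbered libraries deviated together, so the numbers were also fitted as a block. In that fit 4 hnRNPs fell in KD morulae: HNRNPA2B1 (-0.73, limma adjusted p 0.0332), HNRNPA3 (-0.69, 0.0366), HNRNPR (-0.53, 0.0423) and HNRNPDL (-0.51, 0.0491). These are 7.84% of the 51 genes, beside 8.00% of all genes called lower and 11.9% called in either direction in that fit, so the share was near the background. Without the libraries numbered 1, 2 or 3 of both treatments the blocked fit called 0 of the 51 genes each time, where it called 0, 393 and 18 of all genes. At an unadjusted p under 0.05 there were 13, 12 and 11 of the 51 (25.5%, 23.5% and 21.6%), beside 20.8%, 24.4% and 19.2% of all genes, so these shares too were near the background. HNRNPR stood at 67.0, 73.0 and 52.9 FPKM in KD and 80.6, 126 and 78.5 FPKM in NC morulae, again with no overlap.

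Among the subunits of SF3A and SF3B, which hold the U2 particle at the branch site, the largest difference was that of SF3A2. It had 113, 112 and 98.2 FPKM in KD morulae and 92.0, 77.6 and 60.6 FPKM in NC morulae, a difference of 0.50 (SE 0.20, limma adjusted p 0.200). SF3B4, which contacts the transcript near the branch site, had 97.8, 102 and 104 FPKM in KD and 84.3, 67.5 and 89.1 FPKM in NC morulae (0.34, SE 0.16, limma adjusted p 0.249). Both lay higher in every KD library, and they were the 2 genes of the 51 that did so. SF3A1 (0.33), SF3B5 (0.26), SF3B3 (0.12) and SF3B2 (0.09) had positive differences with overlap, and SF3B6, which touches the branch point adenosine, differed by 0.01. SF3B1, the subunit that closes around the branch site, had a negative one of -0.27, with NC replicate 2 highest at 83.6 FPKM, and SF3A3 one of -0.13. The family median of 0.12 was 0.25 with quantile normalization and 0.03 in the blocked fit without the libraries numbered 2.

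Of the SR proteins 8 of 11 had a negative difference between KD and NC morulae, with a median of -0.17, which was -0.05 with 6 of 11 negative after quantile normalization. SRSF5 had 151, 118 and 108 FPKM in KD and 156, 210 and 150 FPKM in NC morulae, so that its groups just overlapped (-0.45, SE 0.19, limma adjusted p 0.203). SRSF10, which represses splicing when it loses its phosphates, was lower in every KD library at 61.9, 58.1 and 69.1 FPKM, against 73.0, 69.1 and 94.5 FPKM in NC morulae (-0.31, limma adjusted p 0.311). The KD value of replicate 3 and the NC value of replicate 2 were nearly equal. SRSF3, the most abundant SR protein transcript, differed by -0.08, with a 95% interval from -0.53 to 0.36, and SRSF1, the best studied member, by -0.17. SRSF2 (-0.02), SRSF4 (0.02) and SRSF6 (0.01) were close to 0. SRSF7 (-0.22), SRSF9 (-0.30) and SRSF11 (-0.21) lay below it and SRSF12 (0.24) above it, each with overlap.

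The Sm core had no common direction, with 3 positive and 4 negative differences and a median of -0.15. Its median ran from -0.24 to 0.01 over the alternatives and turned positive without NC morula replicate 3. SNRPF was the only Sm gene whose groups did not overlap, at 56.2, 55.5 and 46.5 FPKM in KD and 72.5, 64.4 and 64.3 FPKM in NC morulae (-0.34, limma adjusted p 0.271). SNRPE differed by -0.46, SNRPD3 by -0.22 and SNRPD1 by -0.15, while SNRPD2 (0.29), SNRPB (0.25) and SNRPG (0.07) were positive. Among the proteins of single particles SNRPA1 (-0.36) and SNRPB2 (-0.19) of U2 and SNRPA of U1 (-0.27) were negative and SNRPC of U1 was positive (0.14), and each overlapped.

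**Figure D3:**
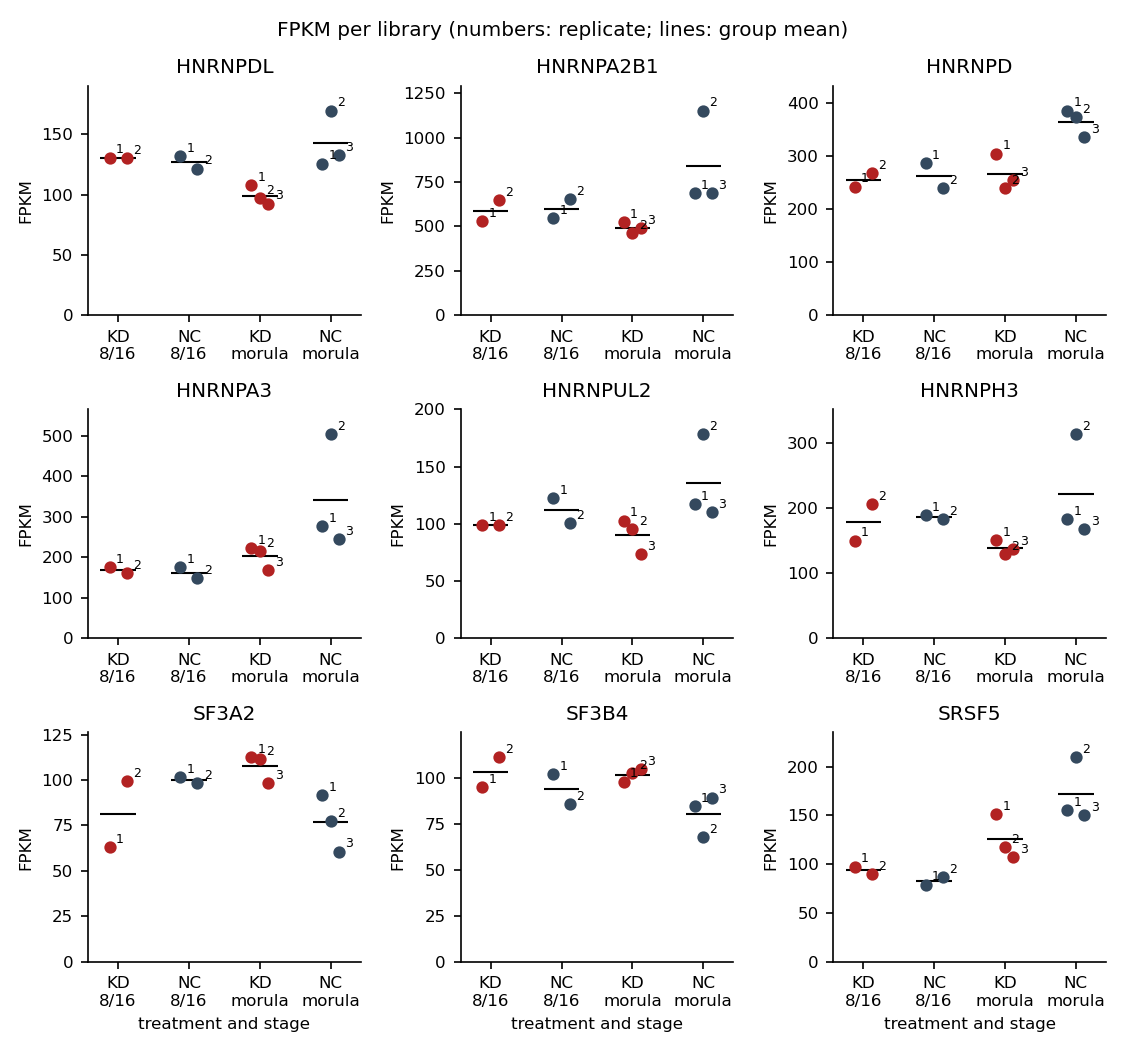
FPKM per library (linear axes from 0) of 9 of the genes, KD left of NC at each stage; points are libraries numbered by replicate and lines are group means (n = 2 per group at the 8/16-cell stage, 3 at the morula stage). HNRNPDL, HNRNPA2B1 and HNRNPA3 show KD morula values below all NC morula values, and SF3A2 and SF3B4 show them above.

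At the 8/16-cell stage H1FOO itself stood lower in both KD libraries than in both NC libraries. It did not pass there (-4.22, SE 0.60, limma adjusted p 0.104), nor in morulae (-0.80, limma adjusted p 0.374). The differences of the 51 genes between KD and NC 8/16-cell embryos lay from -0.33 to 0.45. In limma 0 of 51 passed and 0 had an unadjusted p under 0.05, where 0.0170% (2 genes) and 4.37% of all genes did. The blocked fit also called 0, where it called 0.0255% of all genes. In that fit 1 of the 51 (1.96%) had an unadjusted p under 0.05, beside 8.26% of all genes. The median difference was 0.04, beside 0.01 over all genes, with 33 positive, beside 52.1% of all genes, and 18 negative. Groups without overlap were found for 7 genes higher in KD, beside 19.3% of all genes, and for 2 lower, beside 13.9%. With 2 libraries per treatment the intervals were wide: for HNRNPA2B1, at 529 and 648 FPKM in KD and 546 and 653 FPKM in NC embryos, the difference was -0.03 with a 95% interval from -0.66 to 0.60.

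SNRPG, a small protein of the Sm ring, had the smallest p at this stage, with 216 and 155 FPKM in KD and 126 and 142 FPKM in NC 8/16-cell embryos. Both KD values were above both NC values (0.45, SE 0.21, limma adjusted p 1). SRSF12 had 13.3 and 12.0 FPKM in KD and 11.7 and 7.96 FPKM in NC embryos, a difference of 0.36. SRSF4 had 95.6 and 115 FPKM in KD and 91.3 and 88.2 FPKM in NC embryos, a difference of 0.22. In both genes the KD values were the higher ones.

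SF3A2 had 63.1 and 99.3 FPKM in KD and 102 and 98.3 FPKM in NC 8/16-cell embryos (-0.33), with KD replicate 1 low and the other KD library among the NC values. SNRPB2, of the U2 particle, had 91.9 and 72.0 FPKM in KD and 72.6 and 67.7 FPKM in NC embryos (0.21). HNRNPA1 had 799 and 628 FPKM in KD and 663 and 556 FPKM in NC embryos (0.22). Values of SNRPB2 and HNRNPA1 overlapped, and the limma adjusted p was 1 for all 6 genes. All 7 Sm core genes had a positive difference, with a median of 0.11, and in all 7 KD replicate 1 was the higher KD library. That library is also the one with the largest share of MIR2887, whose part in these values was not tested. Without that library their median was -0.14, and with quantile normalization 1 of 7 was positive and the median was -0.05. The hnRNPs were split, with 11 positive and 9 negative and a median of 0.01, which was -0.09 with quantile normalization.

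None of the 51 genes differed between the stages in its KD effect by the interaction test, and 1 had an unadjusted p under 0.05, beside 9.39% of all genes. In limma 0 of 51 passed, where 0.0170% of all genes did, and the blocked fit also called 0, beside 0.272%. Of the 51 differences in effect 11 were positive, beside 41.5% of all genes. The gene with an unadjusted p under 0.05 was SF3A2, whose difference was 0.50 at the morula stage and -0.33 at the 8/16-cell stage (0.83 between them, SE 0.32, limma adjusted p 0.502). The KD effect was lower at the morula than at the 8/16-cell stage for 18 of 20 hnRNPs, with a median of -0.40, and for 11 of 11 SR proteins, with a median of -0.20, beside -0.10 over all genes. With quantile normalization these medians were -0.17, with 13 of 20 hnRNPs negative, and -0.02, with 7 of 11 SR proteins negative, and of all 51 genes 26 were positive with a median of 0.00. Among single genes, the difference in effect was -0.75 for HNRNPA3 (SE 0.41), -0.70 for HNRNPA2B1 (SE 0.37), -0.62 for SRSF5 (SE 0.29) and -0.55 for HNRNPDL (SE 0.25). No gene lay without overlap to opposite sides at the 2 stages.

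Between the stages, 3 hnRNPs and 2 SR proteins passed as higher in NC morulae than in NC 8/16-cell embryos. SF3B5, SF3B6, SNRPB, SNRPC and the SR protein SRSF12 passed as lower. In limma 10 of 51 genes passed, 19.6%, beside 30.8% of all genes, so the share was below the background. Of these 5 rose, beside 12.6% of all genes, and 5 fell, beside 18.2%. The sign was positive for 29 of 51, beside 45.6% of all genes. Whether the columns of both stages were processed together is not given in the sources used here, and stage and any difference in that processing cannot be told apart. The NC morula libraries are those of the KD comparison above, so high NC morula values enter both.

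HNRNPLL rose to 11.2, 7.80 and 8.49 FPKM in NC morulae, against 3.20 and 4.00 FPKM in NC 8/16-cell embryos (1.13, SE 0.22, limma adjusted p 0.00469). SRSF5 rose to 156, 210 and 150 FPKM in NC morulae, against 79.1 and 86.9 FPKM in NC 8/16-cell embryos (1.03, SE 0.21, limma adjusted p 0.00509). HNRNPA3 rose to 277, 504 and 245 FPKM, against 176 and 149 FPKM at the earlier stage (1.0, SE 0.29, limma adjusted p 0.0237). In each of these every morula library was above both 8/16-cell libraries. HNRNPA3 did not pass with no filter, quantile normalization or the libraries of the comparison alone. HNRNPH2 rose to 52.2, 80.4 and 42.6 FPKM in NC morulae, against 30.2 and 29.6 FPKM (0.89, SE 0.31, limma adjusted p 0.0488). SRSF9, an SR protein close to SRSF1, rose to 203, 164 and 155 FPKM in NC morulae, against 108 and 86.3 FPKM (0.83, SE 0.20, limma adjusted p 0.0111). HNRNPLL had 8.80, 6.44 and 6.18 FPKM in KD morulae and 3.69 and 4.44 FPKM in KD 8/16-cell embryos, while HNRNPH2 had 36.3, 52.7 and 36.5 FPKM in KD morulae and 35.8 and 19.5 FPKM in KD 8/16-cell embryos. In KD embryos too every morula library of both genes was above both 8/16-cell libraries. HNRNPH2 passed in 6 of the 16 alternatives, and SRSF9 in 15.

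SF3B5 fell the most. It stood at 193, 153 and 234 FPKM in NC morulae, against 675 and 580 FPKM in NC 8/16-cell embryos, a difference of -1.71 (SE 0.28, limma adjusted p 0.00208) that passed in 16 of 16 alternatives. SRSF12 fell to 3.69, 4.74 and 3.24 FPKM in NC morulae, against 11.7 and 7.96 FPKM (-1.14, SE 0.24, limma adjusted p 0.00674). Groups lay apart in both genes. SNRPB, the Sm protein B, fell to 286, 213 and 396 FPKM in NC morulae, against 557 and 499 FPKM (-0.87, SE 0.27, limma adjusted p 0.0355), and passed in 6 of 16 alternatives. SNRPC, which helps U1 recognise the start of an intron, fell to 163, 115 and 159 FPKM in NC morulae, against 265 and 227 FPKM (-0.76, SE 0.21, limma adjusted p 0.0197). SF3B6 fell to 154, 124 and 161 FPKM, against 244 and 207 FPKM (-0.62, SE 0.19, limma adjusted p 0.0311). In these 3 genes too, no morula value reached an 8/16-cell value. SNRPC and SF3B6 did not pass with the libraries of the comparison alone, and SF3B6 also did not without NC morula replicate 1 or 2.

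By family, 18 of 20 hnRNPs had a positive stage difference in NC embryos (median 0.28) and 3 rose, while the median over all genes was -0.07. All 4 proteins of single snRNPs had a negative one (median -0.25), as did 5 of 7 Sm core genes (median -0.24) and 6 of 9 SF3A and SF3B genes (median -0.22). The SR proteins were divided, with 6 positive and 5 negative. HNRNPL (0.56, limma adjusted p 0.0672) and SRSF1 (0.51, 0.0546) were just short of the threshold. With the 5 NC libraries fitted alone 5 genes passed, beside 22.8% of all genes. Leaving out an NC 8/16-cell library leaves 1 in that group, so only differences are given for those fits. Without replicate 1 the median over the 51 genes was 0.19, against 0.11 with all libraries. Without replicate 2 the median of the proteins of single snRNPs was -0.42.

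In KD embryos 6 of 51 genes passed between the stages, 11.8%, beside 20.0% of all genes, and all 6 fell, beside 14.8% of all genes called lower and 5.22% called higher. The sign was positive for 21 of 51, beside 37.2% of all genes. The median over all genes was -0.18 here, against -0.07 in NC embryos, so these differences are to be read against that shift. With the libraries shifted to a common median, 28 of the 51 were positive, among them 14 of 20 hnRNPs with a median of 0.21, and with quantile normalization 30 of 51 and 15 of 20. SF3B5 fell to 207, 216 and 267 FPKM in KD morulae, against 986 and 535 FPKM in KD 8/16-cell embryos (-1.66, SE 0.28, limma adjusted p 0.00441), and passed in 16 of 16 alternatives. SRSF12 fell to 5.35, 5.57 and 3.49 FPKM in KD morulae, against 13.3 and 12.0 FPKM (-1.26, SE 0.24, limma adjusted p 0.00784). In both the morula libraries lay wholly below the 8/16-cell libraries.

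The others were SRSF11, a nuclear SR-related protein (-0.64, limma adjusted p 0.0322), SNRPB2 (-0.72, 0.0353), SF3B6 (-0.64, 0.0398) and SNRPA1 (-0.63, 0.0398), the last of which pairs with SNRPB2 in the U2 particle. SNRPA1 stood at 62.1, 62.5 and 50.2 FPKM in KD morulae, against 91.2 and 89.2 FPKM in KD 8/16-cell embryos, with no overlap. When the libraries were shifted to a common median, 3 genes were higher and 2 lower, and only SF3B5 and SRSF12 of the 6 remained; quantile normalization gave 3 higher and 3 lower, of which 2 were among the 6. HNRNPL (0.63, limma adjusted p 0.0594) and HNRNPLL (0.68, 0.0558) had the largest positive differences with p just above the threshold. The count was 3 with no filter on low values, beside 8.90% of all genes. It was 2 without KD morula replicate 1, beside 9.11%, and 3 without KD morula replicate 2 or 3, beside 12.8% and 16.0%. It was 10 without NC morula replicate 2, beside 22.9% of all genes. That library enters through the shared estimate of spread. The Sm core median of -0.52 was -0.26 without KD 8/16-cell replicate 1 and -0.71 without replicate 2, each with 1 library left in that group.

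SF3B5, SRSF12 and SF3B6 passed in both treatments. In KD embryos SF3B6 did not pass with no filter, median-shifted libraries, quantile normalization or the libraries of the comparison alone. Nor did it pass there without KD morula replicate 1 or 2. SF3B5 and SRSF12 passed in each of these settings. The stage difference was positive in both treatments for 19 genes and negative in both for 20, and these 2 comparisons have no library in common. It was above 0 in NC and below 0 in KD embryos for 10 genes, 7 of them hnRNPs, and the reverse for 2, SF3A1 and SF3A2. These splits hold for the values as deposited, since scaling of the libraries moves the signs in KD embryos as given above. For 40 of 51 genes, among them 18 of 20 hnRNPs and 11 of 11 SR proteins, the KD difference was the lower one, which restates the signs of the interaction. SRSF5 differed between stages by 0.40 in KD embryos (limma adjusted p 0.188) and 1.03 in NC embryos, and HNRNPA3 by 0.25 (0.568) and 1.0, with no interaction that passed in either.

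**Figure D4:**
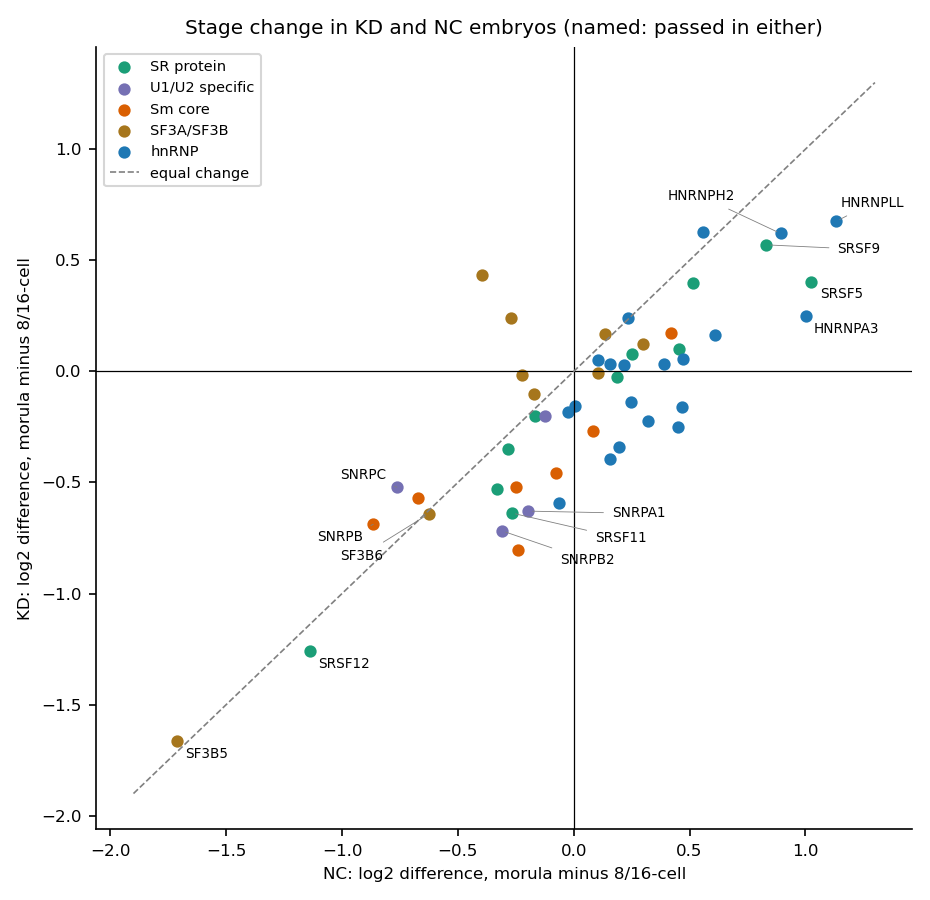
Log2(FPKM + 1) difference, morula minus 8/16-cell, of each of the 51 genes in KD embryos (vertical axis) and NC embryos (horizontal axis), colored by family, with names for genes that passed in either and a dashed line of equal change. SF3B5 and SRSF12 lie far down in both treatments, at -1.66 and -1.26 in KD and -1.71 and -1.14 in NC, and 18 of 20 hnRNPs lie below the line.

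Summed over a family, hnRNP transcripts reached 4878, 4281 and 4374 FPKM in KD morulae and 5572, 6834 and 5201 FPKM in NC morulae, so all KD sums were the lower ones. At the 8/16-cell stage the hnRNP sums were 4602 and 4717 FPKM in KD and 4615 and 4419 FPKM in NC embryos, and overlapped. SF3A and SF3B transcripts summed to 988, 1013 and 1018 FPKM in KD and 919, 839 and 944 FPKM in NC morulae, so here all KD sums were the higher ones. SR protein sums were 1482, 1351 and 1447 FPKM in KD and 1546, 1551 and 1747 FPKM in NC morulae, without overlap. Those of the Sm core overlapped, at 2079, 1673 and 2281 FPKM in KD and 2200, 1559 and 2360 FPKM in NC morulae. Without SF3B5 the SF3A and SF3B sums were 781, 798 and 751 FPKM in KD and 726, 686 and 710 FPKM in NC morulae, and 750 and 850 FPKM in KD and 862 and 773 FPKM in NC 8/16-cell embryos. The KD sums then overlapped between the stages, whereas the NC sums did not. Sums weight each gene by its level, and 3 libraries against 3 allow no exact two-sided permutation p below 0.10, so they are given as a description with no test.

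The ratio of summed hnRNP to summed Sm transcripts was 2.35, 2.56 and 1.92 in KD morulae and 2.53, 4.38 and 2.20 in NC morulae, with the highest value in NC replicate 2. At the 8/16-cell stage it was 1.51 and 1.95 in KD and 1.73 and 1.92 in NC embryos. Within each treatment, every morula value of this ratio except that of KD replicate 3 was above all 8/16-cell values of the same treatment.

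**Figure D5:**
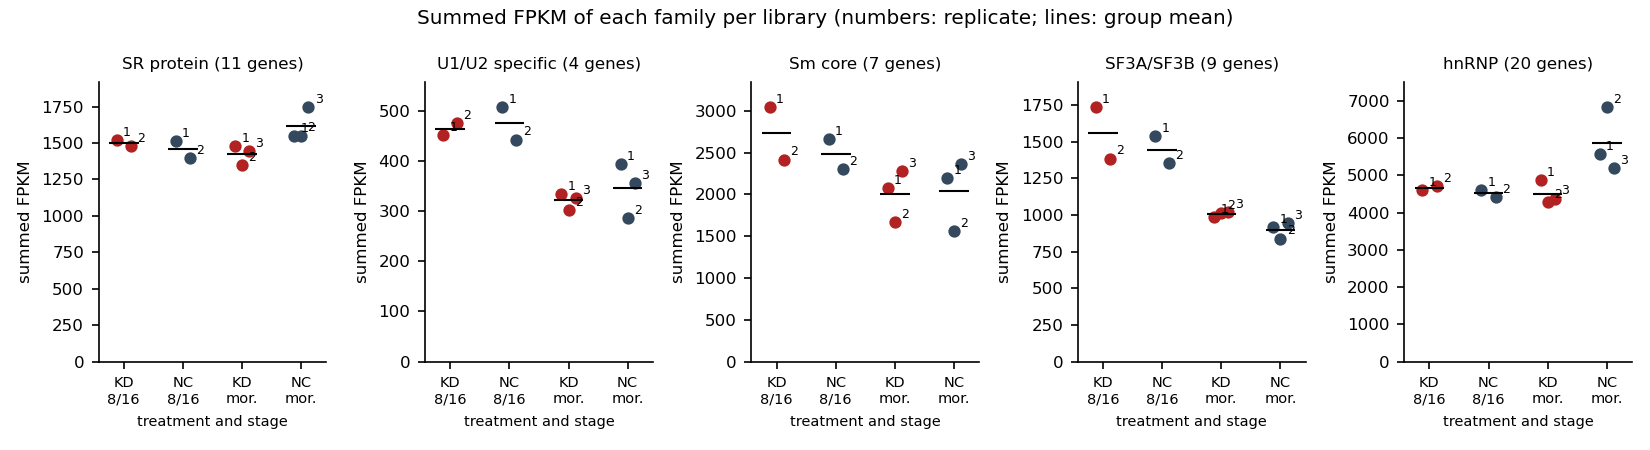
Summed FPKM of each family per library, KD left of NC at each stage; points are libraries numbered by replicate and lines are group means (n = 2 per group at the 8/16-cell stage, 3 at the morula stage). The hnRNP sums of KD morulae, 4281 to 4878 FPKM, lie below those of NC morulae, 5201 to 6834 FPKM, and the SF3A and SF3B sums are lower in all morula than in all 8/16-cell libraries, which in KD embryos does not hold without SF3B5.

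The rest of the splicing pathway was read from 5 lists of 152 genes, of which 148 were tested. In limma 0 of 148 passed between KD and NC morulae and 22 (14.9%) had an unadjusted p under 0.05, beside 21.2% of all genes. Differences were positive for 49 (33.1%), beside 42.0% of all genes, and negative for 99, and the median was -0.12, beside -0.08 over all genes. Values did not overlap for 6 genes higher in KD (4.05%), beside 8.44% of all genes, and for 24 lower (16.2%), beside 15.3%. At the 8/16-cell stage 0 of 148 passed as well in limma and 2 (1.35%) had an unadjusted p under 0.05, beside 4.37% of all genes, with 77 positive and 71 negative and a median of 0.01.

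Other snRNP proteins and early spliceosome factors (45 tested) had a median of -0.09 at the morula stage. PRPF39, a U1-associated protein, averaged 10.3 ± 1.9 FPKM in KD and 17.3 ± 2.1 FPKM in NC morulae (-0.70, SE 0.18, limma adjusted p 0.0724, SD, n = 3 each). TXNL4A, a small protein of the U5 particle, averaged 11.5 ± 1.3 FPKM in KD and 22.0 ± 6.0 FPKM in NC morulae (-0.86, limma adjusted p 0.0853). Both were lower in every KD library, whereas PRPF31, which holds the U4 and U6 particles with U5, was higher in every one (0.51). The factors of the catalytic steps and of the exon junction complex (28 tested) had a median of -0.19, with the helicase DHX16 at 0.59 (limma adjusted p 0.0855), SNW1 at -0.48, CWC15 at -0.50 and ISY1 at -0.51.

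The SMN complex and its partners load the Sm ring onto its RNA, and of 15 tested genes 12 had a negative difference (median -0.24). SNUPN, which carries assembled snRNPs back into the nucleus, averaged 9.21 ± 0.84 FPKM in KD and 13.8 ± 1.2 FPKM in NC morulae (-0.53, limma adjusted p 0.102). COPRS (-0.92), SMN2 (-0.54) and GEMIN4 (-0.37) did not pass either. Kinases and partners of SR proteins (19 tested) had a median of -0.06, with CLK4 (-0.65) and CLK1 (-0.40), which phosphorylate SR proteins, and TNPO3 (0.40), which imports them. Other regulators of splice site choice (41 tested) had a median of -0.12, with the nuclear matrix protein MATR3 at -0.58 (limma adjusted p 0.0981), SYNCRIP at -0.55, MBNL3 at -0.92 and MBNL1 at 0.58.

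Between the stages 5 genes of these lists rose (3.38%) and 18 fell (12.2%) in KD embryos by limma, beside 5.22% and 14.8% of all genes. In NC embryos 15 rose (10.1%) and 14 fell (9.46%), beside 12.6% and 18.2% of all genes, so each share was below the background. CELF2, a regulator of alternative exons, fell in both (-0.99 in KD, -2.03 in NC), as did the arginine methyltransferase PRMT5, which modifies Sm proteins (-0.80 in KD, -0.87 in NC). The helicase SNRNP200, which unwinds the U4 and U6 RNAs, rose in both (0.82 in KD, 0.52 in NC). These 3 genes were chosen after their values were seen.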

How the data were processed

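RNA came from a Picopure isolation, was enriched for messenger RNA on oligo(dT) beads and entered NEBNext Ultra library preparation, per the labels' protocols; strand is not stated, so antisense reads cannot be told apart. The authors deposited FPKM values, 1 column per library (10 matched, 0 unmatched); Trimmomatic, HISAT2, featureCounts and Cufflinks and the builds ARS-UCD1.2 and bosTau9 are named per the submitters' processing notes, without versions. No coordinates or sequences are given, since no genome of that build was used; symbols of all 51 genes matched RefSeq.

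Of 39911 lines, 11211 lines of 81 repeated symbols were left out. The test took 11761 genes whose mean reached 1 FPKM, as log2(FPKM + 1), which understates changes of low genes, with limma-trend (version 3.58.1, R 4.3.3): 4 group means, all 10 libraries, 6 residual and 4.63 prior degrees of freedom, two-sided, Benjamini-Hochberg over all genes, threshold 0.05. Steps were tested on simulated data. No label says that libraries of a group came from separate cultures, so p-values measure the spread between libraries.

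Same-numbered KD and NC morula libraries deviated together from their group means (r = 0.370, 0.325 and 0.312 across genes). The numbers were therefore taken to pair them in the replicate block, which the main fit does not hold. At the 8/16-cell stage r across genes was only 0.0558, and the block was fitted there and for the interaction as well. Alternatives were a pseudocount of 0.1, no filter, a mean of at least 5 FPKM, median-shifted libraries, quantile normalization, the libraries of the comparison alone, the replicate block, RN18S1 as a covariate and each library left out. Values per library are given for the 6 smallest p-values of each stage, the 5 largest rises and falls that passed between NC stages, the 4 highest and 4 lowest means, and other members chosen after their values were seen; of each pathway list up to 4 genes with the smallest p are named. Members, lists and tests were chosen with earlier results of these data known.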

Additional observations from a re-analysis of the deposited data

How the results depend on the processing

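Between KD and NC morulae 0 of 51 genes passed in limma and under each alternative except the replicate block, which called 4 lower; the blocked fits without the libraries numbered 1, 2 or 3, chosen after seeing the data, called 0 each. At the 8/16-cell stage and for the interaction 0 passed under every alternative run, the replicate block (0 each) included. Between the stages no replicate block was fitted, since numbers do not pair stages. For NC embryos the count of 10 (beside 30.8% of all genes) was 5 with the libraries of the comparison alone (22.8%) and 7 with no filter (16.1%). It was 7 to 11 when single morula libraries were left out, where 21.5% to 31.1% of all genes passed. Leaving out an 8/16-cell library leaves 1 in its group, so no separate count between the stages is given for those fits, and the ranges here do not cover them. The tallies of alternatives per gene, and of calls lost and gained, do include those fits. Median-shifted libraries gave 8 higher and 4 lower and quantile normalization 4 and 7, against 5 and 5. For KD embryos the count of 6 (beside 20.0% of all genes) was 3 with no filter (8.90%). It was 2 to 10 when single morula libraries were left out, where 9.11% to 22.9% of all genes passed. The split of 0 higher and 6 lower became 3 and 2 with median-shifted libraries and 3 and 3 with quantile normalization. These move the median of all genes from -0.18 to 0.00 and -0.01. The cause of these changes was not tested. No called difference changed sign. Of member results under alternatives, 37 lost and 13 gained a call in KD and 37 and 9 in NC embryos between stages. Where a library is left out of a pair, the remaining one is taken to vary as much as libraries of other groups. Read depth is unknown, so the counting error of low genes such as HNRNPLL and SRSF12 is unknown too.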
